A study of Mus musculus with 2 samples.

Results

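Immediate-early genes and heat shock genes are transcribed within minutes of a stimulus or of protein damage, and 36 of them are described here across the leukocytes of the injured mouse kidney. All 36 were matched by gene symbol in both count matrices, among 32285 genes: 8 of the AP-1 family (Fos, Fosb, Fosl2, Jun, Junb, Jund and Atf3, with the related bZIP factor Atf4), 13 other immediate-early genes (Egr1, Egr2, Egr3, Nr4a1, Nr4a2, Ier2, Ier5, Klf6, Btg2, Dusp1, Dusp2, Dusp5 and Rgs1), 7 genes of NF-kB and cytokine feedback (Nfkbia, Nfkbiz, Tnfaip3, Socs3, Zfp36, Ier3 and Gadd45b) and 8 heat shock genes (Hspa1a, Hspa1b, Hspa8, Hspa5, Hsph1, Hsp90aa1, Dnajb1 and Hspb1). The study sequenced CD45+ cells, which are leukocytes, from kidneys of B6 mice at week 2 of aristolochic acid nephropathy (labelled AAN CKD), a toxin model of chronic kidney disease. There was 1 single-cell sample, deposited as 2 hashed samples, and no sample is labelled untreated. Its time entry reads Week 2 but its title reads W1 and W2, Mouse 1, so a difference in week between the hashed samples cannot be told apart from any other difference between them. Also, its cell type entry reads mesenchymal stem cells and its protocol speaks of human kidneys, although the organism is given as mouse and the cells carried leukocyte markers. The spatial sections of the series were not analysed here.

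Per the labels, the kidneys were digested with Liberase, a collagenase blend, for 30 minutes at 37 degrees Celsius before sorting. Immediate-early and heat shock transcripts can be induced during such a digestion as well as in the living tissue. With no undigested sample, the 2 sources cannot be told apart in any value below. The hashed samples are not stated to come from separate animals, so both values are given side by side, the first hashed sample before the second, and they are not treated as biological replicates. Intervals are 95% exact intervals that cover counting error only.

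AP-1 is a dimer of Fos and Jun proteins that binds DNA soon after growth factor, cytokine or stress signals, and its genes are switched on without new protein synthesis. NF-kB is held in the cytoplasm by inhibitors such as the product of Nfkbia, and once released it induces that inhibitor and other brakes, so that the response ends itself. Heat shock factors bind inverted repeats of a short element and induce chaperones such as those encoded by Hspa1a and Hspa1b, whereas Hspa8 and Hsp90ab1 encode chaperones that are present in unstressed cells and Hspa5 encodes the chaperone of the endoplasmic reticulum.

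The DNA just before the start sites of 5 members is printed because each holds a match to a known stress- or signal-responsive element and each member is described in the comparisons below. Promoters were taken from RefSeq (GRCm38.p6), and those of 29 of the 36 members were searched. Each sequence is the 250 bases before the annotated start, written 5′ to 3′ on the gene's own strand, and no GENCODE exon overlapped any of them. Capitals mark the motif match: a heat shock element in Hspa1a and Hspa1b, a cyclic AMP response element in Btg2, and a kappa-B site in Nfkbia and in Fos. Hspa1a lies at chr17:34972157-34972406 (minus strand), Hspa1b at chr17:34959239-34959488 (minus strand), Btg2 at chr1:134079156-134079405 (minus strand), Nfkbia at chr12:55492648-55492897 (minus strand) and Fos at chr12:85473640-85473889 (plus strand).
Hspa1a: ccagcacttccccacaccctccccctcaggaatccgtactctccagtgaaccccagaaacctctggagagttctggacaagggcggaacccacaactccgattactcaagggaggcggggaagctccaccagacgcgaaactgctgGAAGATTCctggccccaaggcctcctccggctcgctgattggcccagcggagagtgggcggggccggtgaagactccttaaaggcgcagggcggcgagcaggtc
Hspa1b: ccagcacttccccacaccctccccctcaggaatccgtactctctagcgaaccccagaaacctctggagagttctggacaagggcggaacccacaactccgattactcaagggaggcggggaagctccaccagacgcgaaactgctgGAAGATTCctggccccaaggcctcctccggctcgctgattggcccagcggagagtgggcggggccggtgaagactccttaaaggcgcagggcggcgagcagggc
Btg2: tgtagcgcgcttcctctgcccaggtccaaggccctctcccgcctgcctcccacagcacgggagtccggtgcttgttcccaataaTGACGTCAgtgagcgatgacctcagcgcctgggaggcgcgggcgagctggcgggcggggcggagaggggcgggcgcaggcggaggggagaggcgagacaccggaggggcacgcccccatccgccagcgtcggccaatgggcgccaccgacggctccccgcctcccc
Nfkbia: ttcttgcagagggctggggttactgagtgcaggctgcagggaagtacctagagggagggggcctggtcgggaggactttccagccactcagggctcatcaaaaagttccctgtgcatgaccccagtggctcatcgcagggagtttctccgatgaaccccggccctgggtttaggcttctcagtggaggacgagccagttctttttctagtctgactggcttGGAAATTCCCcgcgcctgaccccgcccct
Fos: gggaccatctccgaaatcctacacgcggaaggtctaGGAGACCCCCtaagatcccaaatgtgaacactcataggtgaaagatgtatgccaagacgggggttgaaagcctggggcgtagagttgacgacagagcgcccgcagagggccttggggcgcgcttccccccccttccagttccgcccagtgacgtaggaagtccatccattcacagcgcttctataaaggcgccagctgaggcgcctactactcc

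The upstream sequences of Hspa1a and Hspa1b were identical at 247 of 250 bases and both held the element 104 bases before the start. Searched on both strands in the full windows of 300 bases, which run to 50 bases past the start, the heat shock element (GAANNTTC or TTCNNGAA) was found in 4 of the 6 heat shock members with a promoter (Hspa1a, Hspa1b, Hspb1 and Hsph1) and in 3 of the other members (Egr2, Fosl2 and Jun). It was found in 15.1% of 32851 mouse promoters of the same length. A member with several windows was counted if any of them held the motif, whereas this and the following percentages count single promoters. Egr2, Tnfaip3, Hsph1 and Dnajb1 had several windows, so for them the count and the percentage are not directly comparable. The cyclic AMP response element (TGACGTCA) was found in Btg2 and Dusp1, against 1.79% of promoters. A kappa-B site was found in Fos, Fosb, Fosl2, Nr4a1, Ier3, Nfkbia and Tnfaip3, against 4.51% of promoters, and a CArG box, the site of serum response factor, in Dusp5, Egr2 and Zfp36, against 1.63%. The AP-1 site (TGANTCA) occurred in Hspa5 and Tnfaip3, against 7.81%. No match in a member overlapped a match to another of these motifs. A match says only that these letters are in the window. No promoter entry was found for Hsp90aa1, Nfkbiz, Egr3, Ier2, Rgs1 and Hspa8. Chromosome 18, where Egr1 lies, was left out of the member search but not of the 32851 promoters, so Egr1 was not searched.

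After filtering, 3089 and 3467 cells were kept from 3315 and 3700 barcodes, and no barcode was shared. The median depth was 5669 and 6568 unique molecular identifiers (UMIs, counted RNA molecules) per cell. Classes were gated on marker genes, none of them among the 36. C1q-high cells, named resident macrophage-like by this gate alone, made up 40.6% and 55.5% of the cells, with 1254 and 1925 cells. Of these, 744 and 1272 had a UMI of the monocyte receptor gene Ccr2 and none of Cd163, Lyve1 or Folr2. Only 60 and 69 had 2 UMIs of those 3 genes and no Ccr2, so the name does not state an origin. There were 116 and 137 monocyte-like cells, 80 and 189 type 2 dendritic cell (DC)-like, 34 and 63 type 1 DC-like, 49 and 33 migratory DC-like, 302 and 125 CD4 T-like and 294 and 173 CD8 T-like cells. Markers kept out of the gates fitted the type 1 DC and T cell names. The 4 type 1 DC markers summed to 2727 and 4035 CPM (UMIs per 1000000 UMIs of the class) in type 1 DC-like cells against 414 and 404 CPM in type 2 DC-like cells. The 5 T cell markers summed to 1327 and 1495 CPM in CD4 T-like cells against 5.44 and 3.80 CPM in macrophage-like cells. The monocyte name was borne out less. Its 5 outside markers summed to 3625 and 3089 CPM in monocyte-like cells and 1021 and 1082 CPM in macrophage-like cells. In other myeloid cells, which passed no other gate, they summed to 3203 and 2730 CPM. Monocyte-like cells carried Apoe, a macrophage transcript, at 32.5% and 32.5% of the macrophage-like level, and C1qa at 2.24% and 2.25%. In CD4 T-like cells, which should lack both, C1qa stood at 1.74% and 3.08% of the macrophage-like level and Apoe at 1.44% and 4.59%. This is the background of macrophage transcripts in these cells, and free RNA, remaining doublets and misgated cells cannot be told apart in it.

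Each immediate-early part had its highest summed level in a myeloid class, and 2 of the 3 were lowest in type 1 DC-like cells of both hashed samples. The 8 AP-1 genes summed to 4020 and 5000 CPM in monocyte-like cells, against 2389 and 2335 CPM in macrophage-like cells and 1270 and 1305 CPM in CD8 T-like cells. NF-kB feedback genes summed highest in migratory DC-like cells, at 2591 and 3487 CPM, and lowest in type 1 DC-like cells, at 646 and 591 CPM. The other immediate-early genes were also lowest in type 1 DC-like cells, at 1692 and 1373 CPM. The heat shock sum spanned a narrower range. It ran from 2017 to 2711 CPM over the 9 classes of the first hashed sample and from 2219 to 3295 CPM over those of the second. Most of it was Hspa8, Hspa5 and Hsp90aa1, at 1801 and 2031 CPM together in macrophage-like cells. The inducible genes Hspa1a, Hspa1b, Dnajb1, Hsph1 and Hspb1 were less even. They summed from 208 CPM (CD4 T-like) to 628 CPM (type 2 DC-like) in the first, and from 269 CPM (CD8 T-like) to 701 CPM (type 2 DC-like) in the second. The highest class was the same in both hashed samples for 19 of the 36 genes: monocyte-like for Fos, Jun, Atf3, Atf4, Nr4a1 and Ier3, type 2 DC-like for Egr2, Egr3, Btg2, Socs3, Zfp36 and Hspa1a, migratory DC-like for Dusp5, Rgs1, Nfkbia and Gadd45b, CD8 T-like for Dusp2 and Hsph1, and CD4 T-like for Hsp90aa1. The rank correlation of the 9 classes between hashed samples had a median of 0.875 over the 36 genes and was at least 0.5 for 33 of them. For Hspa8 it was -0.13. Hspa8 had 1127 CPM in migratory DC-like cells of the first hashed sample and 2022 CPM in those of the second. B-like cells were too few to rank, since 1 UMI there equals 23.2 and 16.7 CPM.

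**Figure D1:**
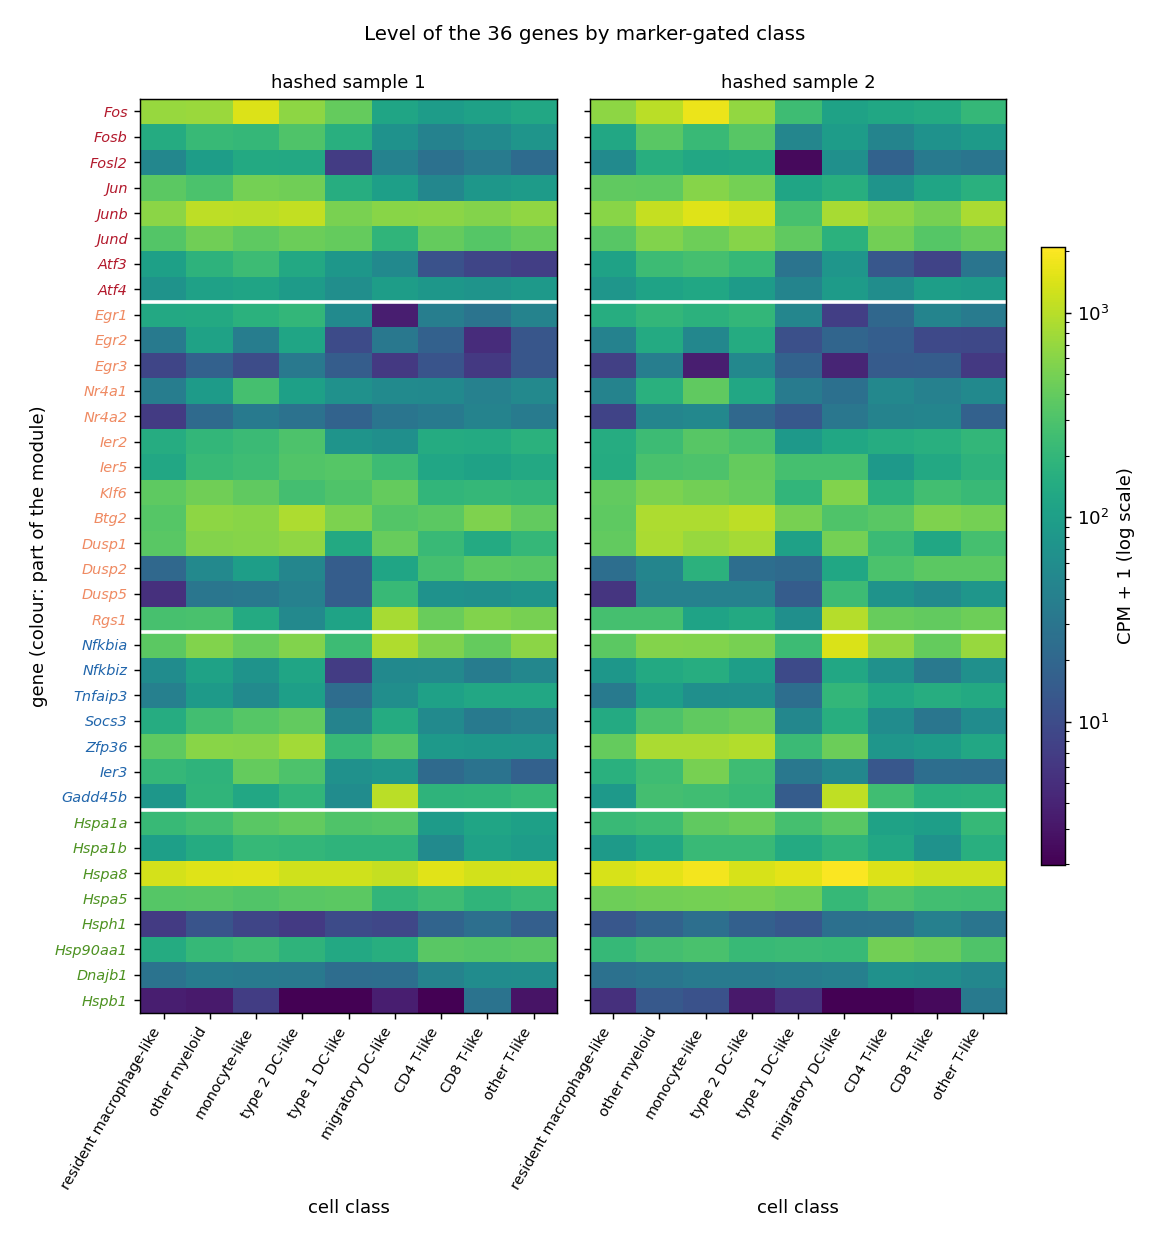
Level of the 36 genes (rows) in 9 cell classes (columns) in each hashed sample (panels), as CPM plus 1 on a logarithmic colour scale. Junb and Hspa8 are bright in myeloid and T-like classes, Fos is brightest in monocyte-like cells, at 1445 and 1719 CPM, Dusp2 is bright in T-like cells, and Egr1 is near 0 in migratory DC-like cells, at 2.63 and 6.18 CPM.

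Comparisons between classes were read from summed UMIs. A fold is the plain ratio of CPM, whereas a log2 ratio was taken after adding 10 CPM to both sides, which makes low genes look closer. A gene was measured where at least 1 of the classes had 50 CPM or more in each hashed sample, and it was counted as higher or lower where the log2 ratio passed 1.5-fold in the same direction in both. A gene that is measured only through its high class is more likely to be counted, so the counts describe the genes past that filter and not all 36. Egr3, Nr4a2, Hsph1 and Hspb1 were not measured in any comparison, 22 members were measured in all 8, and the rest in some. No test across animals was possible with 1 sample, and no p-value is given.

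Monocyte-like cells carried more of the immediate-early genes than macrophage-like cells. Of 29 measured members, 17 were counted higher and 1 lower, where 8.23% of all 2782 measured genes were counted higher and 7.76% lower. The median log2 ratio of the 29 was 0.67 and 0.89, against 0.10 and 0.04 over all measured genes. Among AP-1 genes, 5 of 8 were higher. Fos, the AP-1 subunit that pairs with Jun, had 1445 and 1719 CPM in monocyte-like cells and 711 and 642 CPM in macrophage-like cells, which is 2.03-fold (1.90 to 2.18) and 2.68-fold (2.52 to 2.84) higher. Both monocyte-like values lay above both macrophage-like values. A Fos UMI was found in 45.6% and 53.3% of monocyte-like cells thinned to 1000 UMIs, against 30.0% and 29.9% of macrophage-like cells. Without thinning the shares were 71.6% and 78.8% against 60.8% and 62.5%, and the share in CD4 T-like cells was 7.95% and 15.3% thinned or 30.5% and 34.4% unthinned. The log2 ratios were 1.27 and 1.11 for Fosl2, 1.12 and 1.24 for the stress-induced repressor Atf3, 0.70 and 1.31 for Junb and 0.62 and 0.65 for Atf4. Jun (0.42 and 0.60), Fosb (0.50 and 0.74) and Jund (0.18 and 0.38) were not counted.

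Among the other immediate-early genes, 6 of 9 measured were higher in monocyte-like cells. Nr4a1, an orphan nuclear receptor needed by patrolling monocytes, had the largest ratio of the 29. It had 268 and 380 CPM in monocyte-like cells and 37.1 and 44.5 CPM in macrophage-like cells, a ratio of 7.21-fold (5.97 to 8.70) and 8.55-fold (7.42 to 9.84). Dusp2, a nuclear phosphatase that acts on MAP kinases, had 97.9 and 173 CPM against 20.2 and 23.5 CPM. Nr4a1, Dusp2 and Tnfaip3 were measured only through monocyte-like cells, as was Fosl2 in the first hashed sample. Ier2, Ier5, the antiproliferative gene Btg2 and the MAP kinase phosphatase Dusp1 had log2 ratios between 0.60 and 1.23. The opposite held for Rgs1, which dampens chemokine receptor signals: it had 140 and 112 CPM in monocyte-like cells and 277 and 272 CPM in macrophage-like cells. Of NF-kB feedback genes 4 of 7 were higher, namely the cytokine signal inhibitor Socs3 (1.15 and 1.38), Ier3 (0.96 and 1.56), the mRNA-decay factor Zfp36 (0.67 and 1.06) and Gadd45b (0.64 and 1.44). Nfkbia, Nfkbiz and Tnfaip3 reached the fold in the second hashed sample but not in the first. Of heat shock genes, Hspa1a (0.69 and 0.76) and Hspa1b (1.00 and 1.23) were higher, while Hspa8, Hspa5 and Hsp90aa1 were not counted.

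Genes of the same pathways outside the 36 were counted list by list. The NF-kB list also held the cytokine feedback genes Socs1 and Cish. Of 10 measured further AP-1 and immediate-early genes, 5 were higher in monocyte-like cells, among them the flow-responsive factor Klf2, at 480 and 561 CPM against 73.7 and 68.2 CPM, Cebpb and Klf4. Of 7 measured further NF-kB genes, 4 were higher, among them Traf1, Ikbkb and Sod2. None of 11 further heat shock genes was counted, and of 9 endoplasmic reticulum genes none was higher and 1, Sdf2l1, was lower. Under TMM scaling, Atf4, Ier2 and Gadd45b no longer passed. The macrophage markers outside the gates summed to 11423 and 8024 CPM in monocyte-like cells and 35611 and 25010 CPM in macrophage-like cells, and their part in these ratios was not tested.

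Type 2 DC-like cells, dendritic cells that present antigen to CD4 T cells, also exceeded macrophage-like cells, but with another set of leading genes. Of 29 measured members 15 were counted higher and 1 lower, with 8.71% of all genes higher and 12.7% lower. Fos itself was not counted: it had 647 and 685 CPM in type 2 DC-like cells and 711 and 642 CPM in macrophage-like cells, ranges that overlap. Other members of the family were higher: Fosb had 312 and 343 CPM against 142 and 129 CPM, Fosl2 had 134 and 137 CPM against 49.7 and 54.6 CPM, and Junb had log2 ratios of 0.79 and 1.01. Egr2, a zinc finger factor of the EGR family, had the largest ratio among the higher members, with 120 and 144 CPM against 33.2 and 42.3 CPM, or 3.61-fold (2.80 to 4.61) and 3.41-fold (2.93 to 3.95). Btg2 had 897 and 1041 CPM against 336 and 377 CPM. Nr4a1 (1.26 and 1.36), Ier5 (1.22 and 1.44), Ier2 (0.96 and 0.88) and Dusp1 (0.89 and 1.05) were also higher, and Rgs1 was lower, at 51.6 and 135 CPM against 277 and 272 CPM. Egr2, Nr4a1 and Tnfaip3 were measured only through type 2 DC-like cells, as was Fosl2 in the first hashed sample.

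Feedback genes followed in type 2 DC-like cells, with 4 of 7 counted higher. Socs3 had 399 and 425 CPM against 146 and 141 CPM in macrophage-like cells. Zfp36 had log2 ratios of 1.08 and 1.16, Gadd45b of 1.19 and 1.25, and Tnfaip3, which encodes the ubiquitin-editing brake A20, of 1.15 and 0.80. Hspa1a (0.83 and 0.91) and Hspa1b (0.95 and 1.23) were the heat shock genes counted. Of 13 measured genes of the further NF-kB list 9 were higher and 1 lower. Among the higher were Tnip3, a partner of A20, at 516 and 516 CPM against 70.0 and 119 CPM, Traf1 and the cytokine feedback gene Cish. Of 10 further AP-1 and immediate-early genes 2 were higher and 3 lower, with Cebpb among the lower, at 86.5 and 117 CPM against 385 and 377 CPM. None of 11 further heat shock genes was counted. Macrophage markers outside the gates summed to 492 and 579 CPM in type 2 DC-like cells. The 5 monocyte markers outside the gates summed to 2071 and 2081 CPM there, against 1021 and 1082 CPM in macrophage-like cells. Of these 5, Cd300e was at 0 in type 2 DC-like cells of both hashed samples and Vcan in those of the first. The part of both marker sets was not tested.

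Type 1 and type 2 DC-like cells stood apart in the immediate-early genes and not in the heat shock genes. Type 1 DC-like cells, which cross-present antigen to CD8 T cells, had 18 of 29 measured members counted lower than in type 2 DC-like cells and none higher, where 13.0% of all 2550 measured genes were lower and 8.24% higher. The median log2 ratio was -0.93 and -1.63, against -0.06 and -0.09 over all genes. All 7 NF-kB feedback genes were counted lower and none of 5 measured heat shock genes was. Members measured only through type 2 DC-like cells included Socs3, Nfkbiz, Tnfaip3, Fosl2 and Egr2, and Gadd45b in the second hashed sample. Socs3 had 43.5 and 49.4 CPM in type 1 DC-like cells and 399 and 425 CPM in type 2 DC-like cells, or 0.109-fold (0.0602 to 0.183) and 0.116-fold (0.0803 to 0.163). Nfkbiz, an atypical NF-kB inhibitor of the nucleus, had 2 and 6 UMIs, or 5.80 and 8.47 CPM, against 117 and 96.9 CPM, a ratio of 0.0495 (0.00589 to 0.184) and 0.0874 (0.0316 to 0.194). Ier3 had log2 ratios of -2.03 and -2.63, Zfp36 of -1.82 and -1.97, Gadd45b of -1.57 and -3.22, Tnfaip3 of -1.75 and -1.14 and Nfkbia of -1.24 and -1.07. Of the AP-1 family 6 of 8 were lower. Fosl2 was represented by 2 and 1 UMIs, a ratio of 0.0433 (0.00517 to 0.161) and 0.0103 (0.00026 to 0.058), and Jun had 154 and 120 CPM against 460 and 487 CPM. Egr2 (-2.80 and -2.95), Dusp1 (-2.20 and -2.84), Ier2, Egr1 and Btg2 were the other immediate-early genes counted lower, while Ier5, Klf6, Nr4a1 and Rgs1 were not counted. Rgs1 had opposite signs in the hashed samples, at 1.00 and -1.01.

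The heat shock genes were near each other in these 2 DC classes. Hspa8 had 1272 and 1579 CPM in type 1 DC-like cells and 1277 and 1365 CPM in type 2 DC-like cells, and Hspa5 had 365 and 450 CPM against 357 and 502 CPM. Hspa1a (-0.34 and -0.64) and Hspa1b (-0.11 and -0.64) passed 1.5-fold in the second hashed sample alone. Of 13 further NF-kB genes measured 7 were lower and 1 higher, with Tnip3 at 17.4 and 18.3 CPM against 516 and 516 CPM, and none of 11 further heat shock genes was counted. With 34 and 63 cells, type 1 DC-like cells varied between hashed samples: 10 of 24 members differed by 1.5-fold, 9 of them lower in the second, where 17.2% of all genes did. The 5 monocyte markers outside the gates summed to 136 and 48.0 CPM in type 1 DC-like cells and 2071 and 2081 CPM in type 2 DC-like cells. Vcan and Cd300e were at 0 in type 1 DC-like cells of both hashed samples and in type 2 DC-like cells of the first, and Cd300e in those of the second, and the part of these markers was not tested.

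Migratory DC-like cells, marked by Ccr7 and Fscn1 and known to travel to lymph nodes, separated the parts. Of 31 measured members 5 were counted higher than in type 2 DC-like cells and 16 lower, with 15.6% of all genes higher and 20.2% lower. The higher share was thus near that of all genes, while the lower share was above it. Rgs1 had 835 and 955 CPM in migratory DC-like cells and 51.6 and 135 CPM in type 2 DC-like cells, or 16.2-fold (11.5 to 23.4) and 7.07-fold (5.96 to 8.40). Gadd45b, which links NF-kB to MAP kinase control, had 1019 and 1088 CPM against 192 and 215 CPM, or 5.29-fold (4.35 to 6.48) and 5.06-fold (4.37 to 5.87). A Gadd45b UMI was found in 60.4% and 59.4% of thinned migratory DC-like cells, against 11.2% and 15.9% of type 2 DC-like cells and 5.80% and 5.99% of macrophage-like cells. Unthinned, the shares were 95.9% and 100% against 41.2% and 46.0%. Dusp5 and Dusp2, both nuclear MAP kinase phosphatases, had log2 ratios of 2.11 and 2.25 and of 1.16 and 1.98, and Nfkbia had 908 and 1422 CPM against 561 and 504 CPM. Dusp5 was measured only through migratory DC-like cells, and Egr1, among the lower members below, only through type 2 DC-like cells.

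In the same cells 6 of 8 AP-1 genes were lower, with medians of -1.32 and -1.45. Fos had 118 and 108 CPM against 647 and 685 CPM, or 0.183-fold (0.132 to 0.249) and 0.158-fold (0.110 to 0.221), and Jun had log2 ratios of -2.10 and -1.57. Egr1, a zinc finger factor induced by ERK signals, was represented by 1 and 2 UMIs, or 2.63 and 6.18 CPM, against 199 and 199 CPM, a ratio of 0.0132 (0.000332 to 0.0747) and 0.0311 (0.00375 to 0.113). Egr2, Nr4a1, Ier2, Btg2 and Dusp1 were lower too. The NF-kB part went both ways: Socs3 (-1.43 and -1.40), Zfp36 (-1.23 and -1.05) and Ier3 (-1.86 and -2.10) were lower, and Tnfaip3 (-0.66 and 1.47) and Nfkbiz (-1.02 and 0.39) had opposite signs in the hashed samples. Of heat shock genes Hspa5 alone was counted, with 195 and 210 CPM against 357 and 502 CPM. Of 9 further genes of the endoplasmic reticulum list 4 were lower and 1 higher, among the lower ones Sdf2l1, Pdia6 and Hsp90b1. Of 18 further NF-kB genes 8 were higher and 1 lower, with Relb, the partner of p52, at 329 and 430 CPM against 39.0 and 39.3 CPM. Nr4a3 had 363 and 544 CPM against 43.2 and 71.4 CPM. Between the hashed samples 7 of 29 members differed by 1.5-fold in migratory DC-like cells, where 21.2% of all genes did, and under TMM scaling Dusp1 no longer passed. Tubule markers summed to 242 and 708 CPM in migratory DC-like cells and 199 and 119 CPM in type 2 DC-like cells, and their part was not tested.

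**Figure D2:**
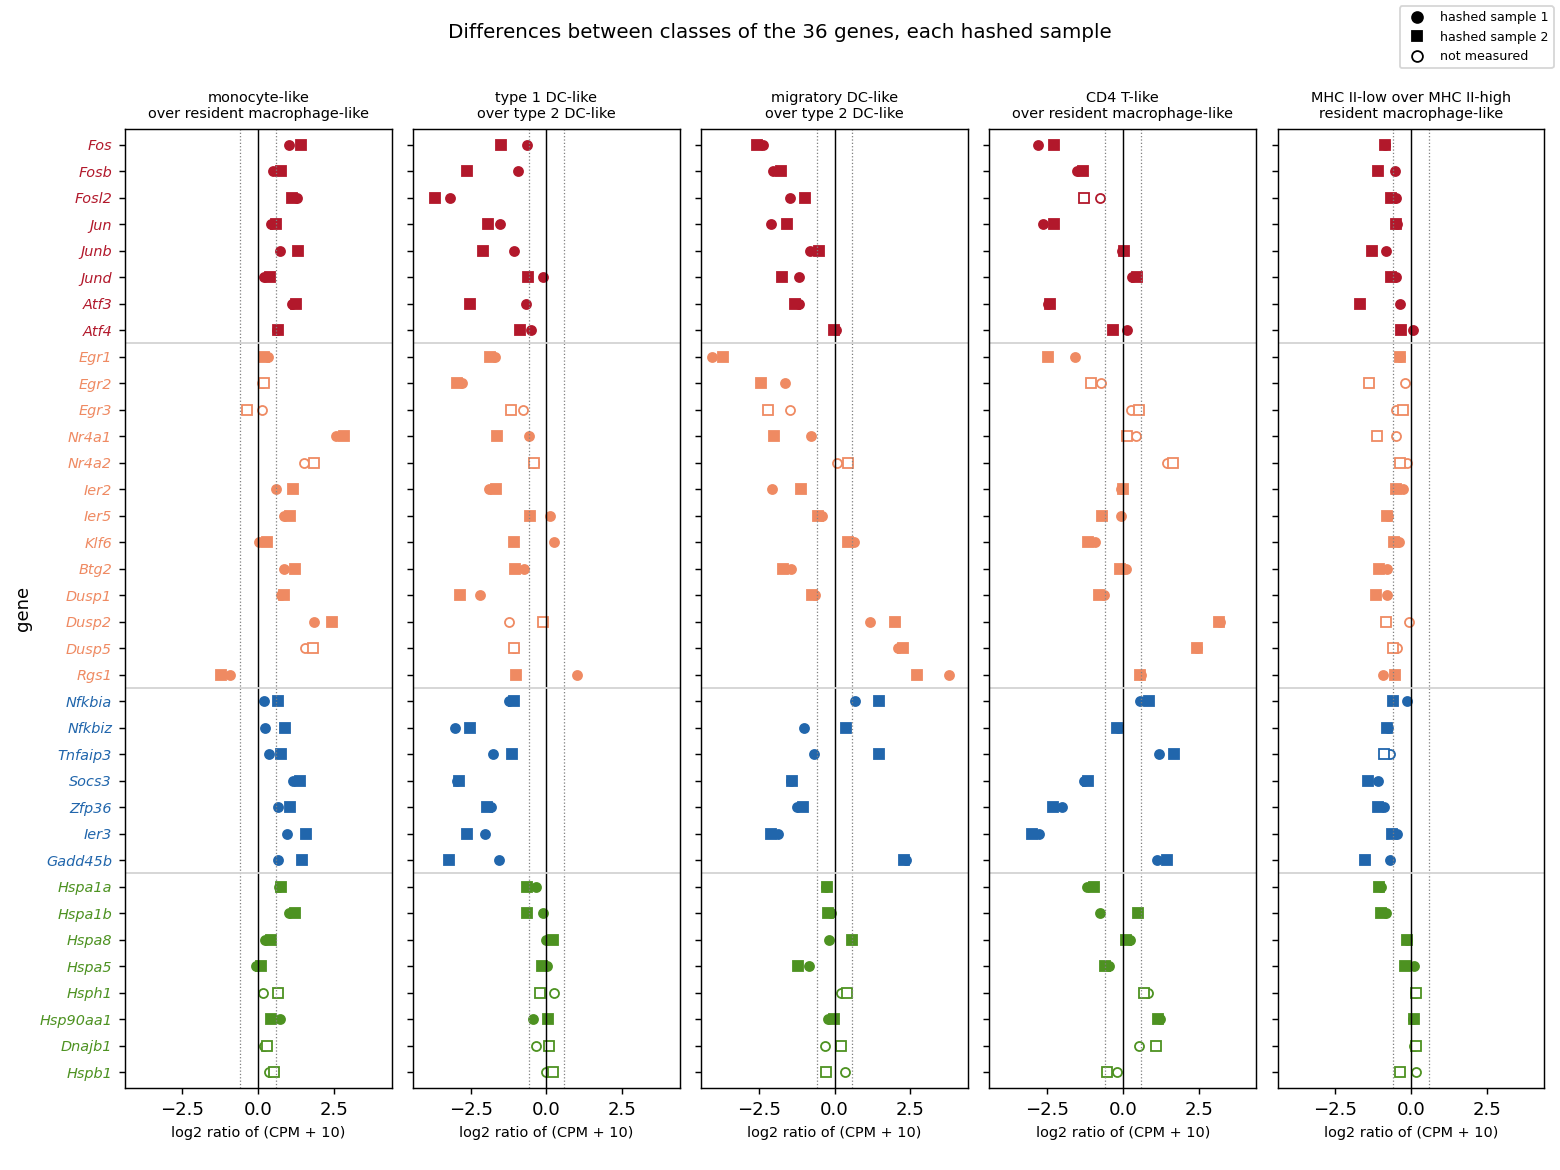
Log2 ratio of each gene on the log2(CPM + 10) scale in 5 comparisons (panels), with circles for the first hashed sample and squares for the second, open where the gene was not measured and dotted lines at 1.5-fold. Rgs1 and Gadd45b lie far to the right in the migratory DC-like panel, at 3.78 and 2.73 and at 2.35 and 2.29, while Fos lies at -2.35 and -2.56.

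CD4 T-like cells, the helper lymphocytes named in the study's aim, were compared with macrophage-like cells. Of 28 measured members 5 were counted higher and 11 lower, where 24.5% of all 3224 measured genes were higher and 20.8% lower. The higher share was thus not above that of all genes, while the lower share was. Dusp2, Dusp5 and Tnfaip3 were measured only through CD4 T-like cells, and Fosb, Atf3, Egr1 and Ier3 only through macrophage-like cells. Dusp2 had 267 and 293 CPM in CD4 T-like cells and 20.2 and 23.5 CPM in macrophage-like cells, or 13.2-fold (11.1 to 15.7) and 12.5-fold (10.4 to 14.9). A Dusp2 UMI was present in 23.2% and 25.8% of thinned CD4 T-like cells and 1.99% and 1.82% of macrophage-like cells, and in 69.2% and 57.6% against 7.34% and 8.78% unthinned. Dusp5 had 67.6 and 71.0 CPM against 4.26 and 4.81 CPM. Tnfaip3 (1.19 and 1.70), Gadd45b (1.13 and 1.44) and the cytosolic chaperone gene Hsp90aa1 (1.23 and 1.15) completed the higher set.

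Lower in CD4 T-like cells were 4 of 7 measured AP-1 genes: Fos had 93.6 and 124 CPM against 711 and 642 CPM, Jun had 49.6 and 72.5 CPM against 359 and 385 CPM, Atf3 had 10.4 and 12.1 CPM against 103 and 108 CPM, and Fosb had log2 ratios of -1.52 and -1.33. Junb was level, at 622 and 624 CPM against 629 and 602 CPM. Egr1, Klf6 and Dusp1 of the other immediate-early genes and Socs3, Zfp36 and Ier3 of the feedback genes were lower, Ier3 at 21.3 and 12.1 CPM against 205 and 166 CPM. These lowest members stood at 10.4% and 7.30% (Ier3) and 10.1% and 11.2% (Atf3) of the macrophage-like level, and Apoe at 1.44% and 4.59%. The part of macrophage background in these members was not tested. Hspa1a was lower (-1.17 and -0.95), and Hspa1b had opposite signs (-0.77 and 0.49). Of 13 further heat shock genes 5 were higher and none lower, with Hsp90ab1 at 2380 and 2497 CPM against 1062 and 1289 CPM, Hspd1 and Dnaja1. Of 12 genes of the further NF-kB list 7 were higher and 1 lower. Among the higher were Traf1 and the cytokine feedback genes Socs1 and Cish, Cish at 177 and 224 CPM against 13.0 and 13.9 CPM. Of 10 endoplasmic reticulum genes 4 were lower, among them Xbp1, Sdf2l1 and Calr. This comparison was sensitive to scaling: the share of all counted genes that were higher was 54.1%, but 33.4% under TMM and 66.1% when member, mitochondrial and ribosomal genes were left out of the totals, and the median log2 ratio of all genes moved from 0.24 to -0.09 and 0.41. Dusp1 no longer passed in the last case, and 9 members were then higher. Tubule markers summed to 165 and 785 CPM in CD4 T-like cells and 285 and 278 CPM in macrophage-like cells, and their part was not tested.

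CD8 T-like cells, the cytotoxic lymphocytes, were compared with CD4 T-like cells. Of 26 measured members 1 was counted lower and none higher, near the background of 2.71% of all genes lower and 1.93% higher. The member was Dusp1, with 139 and 126 CPM in CD8 T-like cells and 225 and 227 CPM in CD4 T-like cells, and under C1q gates of 30 or 120 per 10000 or a pseudocount of 50 CPM no member was counted lower. Dusp2 had 364 and 362 CPM against 267 and 293 CPM, and Btg2 had 544 and 543 CPM against 361 and 353 CPM, short of the count at log2 ratios of 0.58 and 0.60. Of all calls 41.5% were higher, and 50.8% under TMM or 58.3% with the member, mitochondrial and ribosomal genes left out. Hspb1 in T-like cells rested on single cells: 31 of its 36 UMIs in CD8 T-like cells of the first hashed sample came from 1 cell, and 23 of 25 UMIs in other T-like cells of the second came from 1 cell.

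The study set out to follow resident macrophages that lack MHC class II, the antigen-presenting molecules read by CD4 T cells, and the 36 genes were therefore compared between macrophage-like cells below and above 30 MHC class II UMIs per 10000. There were 174 and 635 MHC II-low cells and 1080 and 1290 MHC II-high cells. Of 26 measured members 11 were counted lower in MHC II-low cells and none higher, where 2.24% of all 2719 measured genes were lower and 3.16% higher. The median log2 ratio was -0.51 and -0.73, against 0.12 and 0.12 over all genes. Fos stood at 421 and 414 CPM below the dividing level and at 764 and 758 CPM above it, or 0.551-fold (0.504 to 0.601) and 0.546-fold (0.519 to 0.575). Junb had 374 and 304 CPM against 675 and 753 CPM. Jun, Jund, Fosb, Fosl2 and Atf3 had negative log2 ratios short of the count, with Atf3 at -0.38 and -1.70. Btg2 (-0.80 and -1.07), Dusp1 (-0.79 and -1.14) and Ier5 (-0.74 and -0.80) were the other immediate-early genes counted.

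Of the feedback part, Socs3 stood in MHC II-low cells at 70.7 and 61.3 CPM against 160 and 182 CPM, or 0.442-fold (0.353 to 0.546) and 0.338-fold (0.297 to 0.383). Gadd45b (-0.69 and -1.50), Zfp36 (-0.89 and -1.09) and Nfkbiz (-0.76 and -0.78) were also counted. The heat shock part divided by gene: Hspa1a had 114 and 125 CPM against 233 and 272 CPM and Hspa1b had 56.1 and 49.4 CPM against 107 and 108 CPM, whereas Hspa8 (-0.14 and -0.14), Hspa5 (0.12 and -0.21) and Hsp90aa1 (0.08 and 0.09) were not counted. A Hspa1a UMI was found in 9.88% and 8.77% of thinned MHC II-low cells and 16.1% and 18.9% of thinned MHC II-high cells, and in 25.3% and 25.5% against 39.4% and 43.2% unthinned. Of 8 further AP-1 and immediate-early genes 1 was lower, Pim1 (-0.71 and -1.19), and of 6 further NF-kB genes 1 was lower, Tnip3 (-1.46 and -2.21), and none of 11 further heat shock genes was counted.

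Several cell features moved with this division. The MHC II-high cells included 64.6% and 77.0% that were Ccr2-gated, Ccr2 being the receptor that brings monocytes into tissue. The median mitochondrial share was 2.41% and 2.40% in MHC II-low cells and 2.15% and 2.03% in MHC II-high cells. The 5 monocyte markers summed to 880 and 561 CPM against 1047 and 1347 CPM, and the 4 type 2 DC markers to 69.2 and 49.8 CPM against 207 and 277 CPM, with Cd7 of that list at 0 in all 4 groups. The 4 platelet markers summed to 1200 and 1902 CPM against 461 and 646 CPM, with Gp9 at 0 in all 4 groups and Itga2b in all but the MHC II-high cells of the second hashed sample, and the neutrophil markers to 213 and 64.9 CPM against 55.8 and 36.5 CPM. Their part in the result was not tested. Within Ccr2-gated cells alone, a comparison chosen after seeing the data with 46 and 279 MHC II-low and 698 and 993 MHC II-high cells, 3 of the 11 members still passed (Socs3, Hspa1a and Hspa1b). The other 8 had negative mean log2 ratios but did not pass in both hashed samples. Scaling moved the share of all counted genes that were higher from 58.5% to 35.9% under TMM, and 17 members were then counted lower. Read from a single hashed sample, 12 members were lower in the first and 19 in the second.

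Macrophage-like cells with Cd163, Lyve1 or Folr2, which are genes of long-lived tissue macrophages, had fewer of these transcripts than Ccr2-gated cells. They numbered 60 and 69 against 744 and 1272 cells, and 65.0% and 78.3% of them were also MHC II-low, so the 2 macrophage comparisons share cells. Of 26 measured members 13 were counted lower and none higher, where 3.96% of all genes were lower and 7.67% higher. Junb had 277 and 239 CPM against 732 and 698 CPM, or 0.378-fold (0.315 to 0.450) and 0.343-fold (0.288 to 0.405). Fos, Fosl2 and Jund were the other AP-1 genes counted. Socs3 had 53.6 and 49.2 CPM against 168 and 173 CPM, Zfp36 had log2 ratios of -0.94 and -1.52 and Gadd45b of -0.80 and -1.98. Ier5, Btg2, Dusp1 and Rgs1 were lower among the other immediate-early genes. Hspa1a had 114 and 56.0 CPM against 249 and 257 CPM and Hspa1b log2 ratios of -0.72 and -1.63, while Hspa8, Hspa5 and Hsp90aa1 were not counted. Of the further genes Tnip3, Batf3 and Pim1 were lower and Dusp6 and the mitochondrial chaperone gene Hspa9 were higher. Read from a single hashed sample, 14 members were lower in the first and 22 in the second. With a C1q gate of 120 per 10000, 8 members were counted lower, and under TMM 20 were. TMM also moved the share of calls that were higher from 66.0% to 41.5%. Monocyte markers summed to 292 and 312 CPM against 1253 and 1292 CPM, with Cd300e at 0 in both hashed samples of the Cd163, Lyve1 or Folr2 gate. Their part was not tested.

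Cell by cell, the sums of the immediate-early parts were spread widely. The sum of the whole heat shock part, most of which was Hspa8, Hspa5 and Hsp90aa1, was spread less. In macrophage-like cells the median AP-1 sum was 13.3 and 14.1 UMIs per 10000, with quartiles of 6.25 to 29.0 and 6.99 to 29.5. The median was 29.7 and 40.7 in monocyte-like cells, 27.9 and 33.1 in type 2 DC-like cells, 10.3 and 8.68 in type 1 DC-like cells and 10.1 and 11.3 in CD4 T-like cells. The NF-kB feedback median was 6.45 and 6.44 in macrophage-like cells, 21.1 and 21.9 in type 2 DC-like cells, 19.0 and 30.3 in migratory DC-like cells and 3.89 and 4.06 in type 1 DC-like cells. The heat shock median was 18.7 and 21.2 in macrophage-like cells and 26.3 and 29.3 in monocyte-like cells. Of all AP-1 UMIs of thinned macrophage-like cells, the top 10% of cells held 43.6% and 42.1%. The inducible heat shock genes (Hspa1a, Hspa1b, Dnajb1, Hsph1 and Hspb1) were more concentrated, with 66.8% and 69.6% of their UMIs in the top 10% of cells and with 46.4% and 45.0% of unthinned cells at 0. Hspa8, Hspa5 and Hsp90aa1 together gave 28.0% and 26.7%. These shares also depend on the level, since a gene set with few UMIs per cell is concentrated by counting alone.

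**Figure D3:**
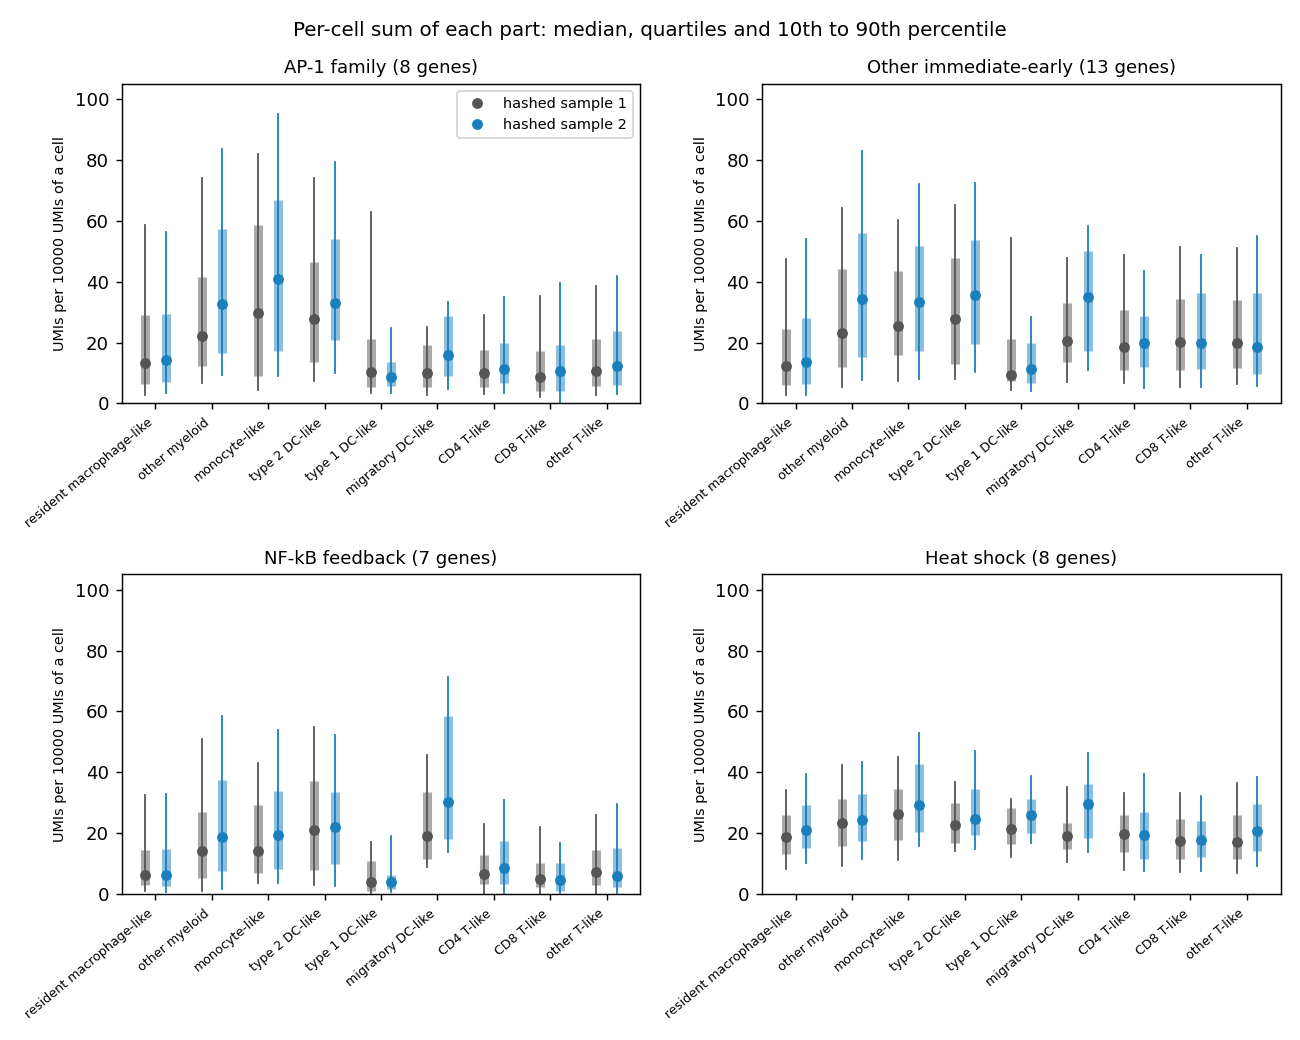
UMIs per 10000 per cell summed over each part, by cell class and hashed sample, with points at the median, thick bars from the 25th to the 75th percentile and thin bars from the 10th to the 90th. The AP-1 medians of macrophage-like cells are 13.3 and 14.1 and those of monocyte-like cells 29.7 and 40.7, while medians of the whole heat shock sum lie close together.

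The 3 immediate-early parts varied together across macrophage-like cells, and the heat shock part varied less with them. Correlations were taken over log-transformed UMIs per 10000 in 1254 and 1925 cells, which share a library, and are descriptions. Pearson's r between AP-1 and other immediate-early sums was 0.64 and 0.64 (Spearman's rho 0.69 and 0.68), between AP-1 and NF-kB feedback 0.59 and 0.60, and between AP-1 and heat shock 0.29 and 0.30. After thinning to 1000 UMIs these were 0.42 and 0.42, 0.41 and 0.38, and 0.12 and 0.15. With the depth of a cell the AP-1 sum had r of 0.07 and 0.03 and the heat shock sum 0.32 and 0.22. With MHC class II it was 0.17 and 0.28 for AP-1, and with the mitochondrial share -0.12 and -0.11. In type 2 DC-like cells r was 0.84 and 0.82 between AP-1 and other immediate-early genes, 0.79 and 0.74 between AP-1 and NF-kB feedback, and 0.16 and 0.11 between AP-1 and heat shock. Thinned, the first of these was 0.44 and 0.43 and the second 0.53 and 0.45.

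Of the 630 pairs of members, 78 had r of at least 0.3 in macrophage-like cells of both hashed samples. Hspa1a with Hspa1b was the highest pair, at 0.60 and 0.58, but these genes are near-identical copies and the split of reads between them is uncertain. Of 90-base windows along their transcripts, 49.3% of Hspa1a windows and 52.3% of Hspa1b windows occur in the other, although none of those in the last 500 bases, where 3′ reads fall, does. Zfp36 formed the pairs that followed, with Junb at 0.58 and 0.56, with Fos at 0.56 and 0.56 and with Dusp1 at 0.53 and 0.53. Within the NF-kB feedback part the median pair had r of 0.32 and 0.34, within AP-1 0.28 and 0.26, and within the heat shock part 0.03 and 0.03. Among genes outside the 36, Il1b, which encodes interleukin 1 beta, was most like each immediate-early part across these cells, with r of 0.43 and 0.44 for AP-1, 0.46 and 0.45 for the other immediate-early genes and 0.47 and 0.51 for NF-kB feedback. Cxcl2, Pim1 and Cd14 followed for AP-1 with Cebpb, the same 3 genes for the other immediate-early part with Cdkn1a, and Cxcl2, Pim1, Cd83 and Cdkn1a for NF-kB feedback. No gene reached 0.3 for the heat shock part, where Hsp90ab1 was highest at 0.26 and 0.24.

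**Figure D4:**
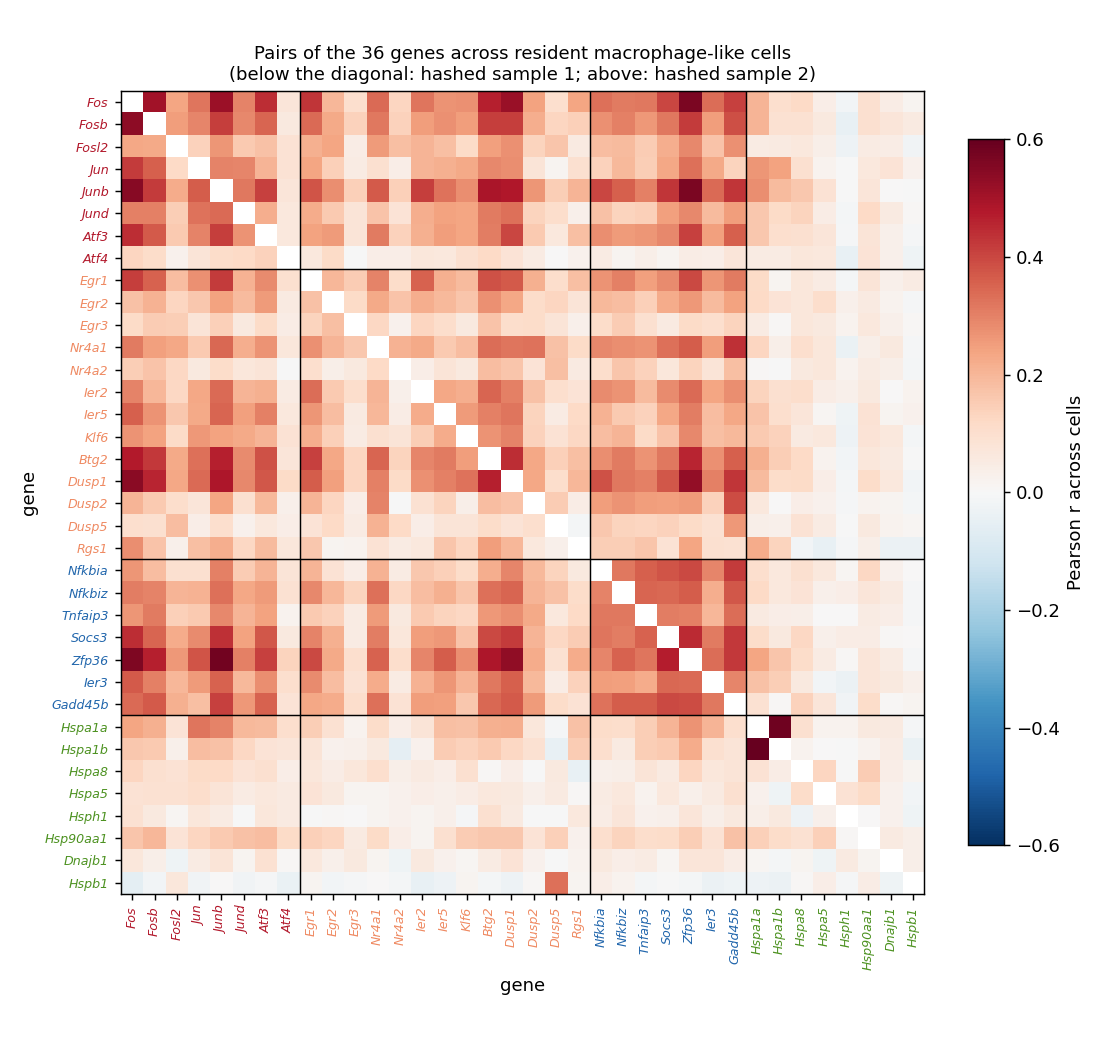
Pearson r of each pair of the 36 genes across macrophage-like cells, below the diagonal for the first hashed sample and above it for the second. The block of AP-1, other immediate-early and feedback genes is coloured on both sides of the diagonal, and the heat shock block is pale apart from the Hspa1a and Hspa1b pair at 0.60 and 0.58.

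Between the hashed samples the levels within a class were compared for the members with at least 50 CPM. In macrophage-like cells none of 26 members differed by 1.5-fold, where 2.32% of all genes did, and in CD8 T-like cells none of 24 did, where 5.70% did. In other myeloid cells 3 of 30 members were higher in the second hashed sample, where 2.28% of all genes differed, and the median log2 difference was 0.33 over the members and 0.02 over all genes. Differences were seen for 4 of 30 members in monocyte-like cells, all higher in the second hashed sample, where 8.46% of all genes differed, and for 1 of 26 in CD4 T-like cells, where 6.36% did.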

How the data were processed

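CD45+ cells of 1 capture were analysed as 2 hashed samples, and no p-value is given because the labels do not say that these are separate animals. The deposited matrices hold raw UMI counts per gene and cell barcode. Per the file headers, they were written by Cell Ranger 6.1.1. Seurat 4.3.0, Cell Ranger 6.0 and the mm10 build appear in the submitters' processing notes. Depth was 20743037 and 25314154 UMIs over 3315 and 3700 barcodes. Cells passed a filter of 200 detected genes, 500 UMIs and a mitochondrial share not above 10% (6601 of 7015). Scrublet in scanpy 1.11.5, run on both hashed samples together, marked 40 doublets (0.606% of cells) and the hashtags 6, and these were removed.

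Classes were gated in order on marker UMIs, resident macrophage-like cells by at least 60 UMIs of C1qa, C1qb and C1qc per 10000. UMIs were summed by class and hashed sample and scaled to 1000000. A log2 ratio used a pseudocount of 10 CPM, and a count needed 1.5-fold in both hashed samples among genes with at least 50 CPM. Intervals are exact (Poisson for levels, conditional binomial for ratios, 95%, scipy 1.17.1) and cover counting error only. Thinned values use 1000 UMIs per cell. Classes of under 20 cells in a hashed sample were not compared, so natural killer and Foxp3+ cells were left out and 8 of 10 planned comparisons were made. All 36 members are named. Of the further pathway lists, the 3 counted genes with the largest mean log2 ratio are named, and of genes alike across cells the first 5 with r of at least 0.3. The counting step was tested on simulated data. Members and lists were chosen with earlier results of these data known. Alternatives changed gates, filters, scaling, pseudocount and fold, and left out each hashed sample. Promoters are RefSeq sequences of GRCm38.p6. The spatial sections were not analysed here.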

Additional observations from a re-analysis of the deposited data

How the results depend on the processing

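Of 405 results recomputed under the alternatives, 86 moved. No member counted in a comparison changed the sign of its mean log2 ratio, but the counts for CD8 T-like against CD4 T-like cells went from 0 higher and 1 lower to 1 or 2 higher and 0 lower under the C1q gates. Over the 114 member calls, 1526 recomputed values stayed past the fold and 102 did not, 50 of these at a fold of 2. A call cannot be lost with each hashed sample alone, with no low-value filter or with a pseudocount of 1 CPM. The values from these settings are among the 1526 and say nothing about stability. Values no longer measured under a setting were left out of both numbers. The causes were not tested beyond what each setting does by construction. No paired analysis was possible because 1 sample allows no test, and each ratio was already taken within a hashed sample.

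At a fold of 2, members higher in monocyte-like cells numbered 7 (0 lower) and in type 2 DC-like cells 9 (0 lower), members lower in MHC II-low cells 1, in the Cd163, Lyve1 or Folr2 gate 4 and in CD8 T-like cells 0. All genes counted were then 199 for monocyte-like, 330 for type 2 DC-like, 286 for type 1 DC-like, 599 for migratory DC-like, 886 for CD4 T-like, 38 for CD8 T-like, 48 for MHC II-low cells and 141 for the Cd163, Lyve1 or Folr2 gate. With no low-value filter, which tests more genes, they were in the same order 891, 1184, 1208, 2075, 3140, 308, 237 and 610. With a pseudocount of 50 CPM all genes counted were 289 for monocyte-like, 68 for CD8 T-like, 83 for MHC II-low and 195 for the Cd163, Lyve1 or Folr2 gate, with 7 members lower in MHC II-low cells and 0 in CD8 T-like cells. Under TMM scaling 17 members were lower in MHC II-low cells and 20 in the Cd163, Lyve1 or Folr2 gate. With member, mitochondrial and ribosomal genes left out of the totals the latter was 20, CD4 T-like cells had 9 members higher and 2242 genes were counted for them. Under a C1q gate of 120 the Cd163, Lyve1 or Folr2 gate had 8 lower. Within Ccr2-gated cells, chosen after seeing the data, MHC II-low cells had 3 lower.

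CD8 T-like against CD4 T-like cells had 1 member higher under a C1q gate of 30, 5 marker UMIs, a higher UMI minimum or doublets kept, and 2 higher under a C1q gate of 120, a pseudocount of 1 CPM, TMM or the reduced totals. It had 0 lower under either C1q gate and 2 lower under 5% mitochondrial UMIs or a pseudocount of 1 CPM. With each hashed sample alone it had 1 to 3 higher and up to 5 lower, with 314 to 437 genes counted. All genes counted from 1 hashed sample reached 728 for monocyte-like cells, 893 to 938 for type 1 DC-like, 1387 to 1467 for migratory DC-like, 235 to 271 for MHC II-low and 545 to 638 for the Cd163, Lyve1 or Folr2 gate. Members lower were 12 in MHC II-low cells of the first hashed sample alone and 19 of the second, and 14 and 22 for the Cd163, Lyve1 or Folr2 gate, and 1 member was higher in type 1 DC-like cells of the first.

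Thinned to 1000 UMIs, where 1 UMI equals 10 per 10000, mean medians per 10000 were 10 (AP-1, macrophage-like), 25 (AP-1, monocyte-like), 10 (other immediate-early, macrophage-like), 10, 20 and 10 (NF-kB feedback in macrophage-like, type 2 DC-like and CD4 T-like) and 30, 25 and 20 (heat shock in monocyte-like, type 2 DC-like and CD4 T-like). With at most 5% mitochondrial UMIs the NF-kB feedback medians were 6.39 (macrophage-like) and 22.3 (type 2 DC-like). Thinned correlations in macrophage-like cells were 0.418 (AP-1 with other immediate-early), 0.391 (AP-1 with NF-kB feedback), 0.134 (AP-1 with heat shock), 0.367 (other immediate-early with NF-kB feedback), 0.124 (other immediate-early with heat shock) and 0.108 (NF-kB feedback with heat shock), and in type 2 DC-like cells 0.434, 0.489, 0.0616, 0.488 and, for NF-kB feedback with heat shock, 0.0939.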
